A study of Mus musculus with 12 samples.

Results

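The purinergic enzymes and receptors considered here are the products of 6 genes: Entpd1, Nt5e, P2rx7, P2rx4, Adora2a and Ada. Their probe sets were taken from the platform annotation, which had to give a listed symbol as the single gene. This gave 14 probe sets for 5 of the 6 genes, among 45037 probe sets tested: 3 for Entpd1, 3 for Nt5e, 3 for P2rx7, 4 for P2rx4 and 1 for Ada. No probe set carried Adora2a alone in the annotation used here, so this receptor is not analysed here. All 14 probe sets entered every test, since no filter on low values was applied.

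Splenic CD4 T cells were sorted from female mice of the lupus-prone MRL/Faslpr strain, in which the death receptor gene Fas is mutated, and their total RNA was hybridised to 12 Affymetrix whole-genome mouse arrays. Every population passed a TCRb+ CD4+ B220- gate, and each was measured on 3 arrays. CD62Llo PSGL1lo cells (written PSGL1lo cells), CD62Llo PSGL1hi cells and CD62Lhi PSGL1hi cells were CD44+ and came from mice aged 16 to 24 weeks. Naive cells were CD62Lhi CD44lo and came from mice aged 6 to 8 weeks, so in each comparison with naive cells population and age cannot be told apart. All 4 populations carried the lpr allele. The sample titles speak of technical replicates and the design text of 3 independent sorts, so each p-value measures the spread among these arrays only. For the CD62Llo PSGL1hi arrays the description field gives another gate than titles and design text, which were taken as correct.

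The deposited value is a linear ratio of an array's signal to the median of its probe set over the 12 arrays. A ratio of 1 is therefore the middle of that probe set's own range, and ratios of different probe sets are on no common scale of expression. Brightness and signal over background are unknown, and the number of arrays limits the precision: the median standard error of a difference between 2 populations was 0.12 on the log2 scale. Populations were compared with limma on log2 ratios, and a probe set was called where its Benjamini-Hochberg adjusted p over all 45037 was under 0.05. Where a gene has several probe sets, the lead is the first by a rule on name suffix, target and number, without regard to values. Of the gate genes, Selplg, which encodes PSGL1, averaged 0.133 ± 0.0182 in PSGL1lo cells, 0.993 ± 0.0955 in CD62Llo PSGL1hi cells, 1.04 ± 0.0838 in CD62Lhi PSGL1hi cells and 1.10 ± 0.0654 in naive cells (SD, n = 3 each). Cd44 averaged, on its lead probe set, 1.27, 1.10 and 0.870 in the CD44+ populations in the same order, against 0.0791 in naive cells; 1 of the 3 other Cd44 probe sets was not called against naive cells in any of them (means 0.963, 0.922 and 1.06, against 1.05). The mean ratios of the lead probe sets of Cd3e and Cd4 lay between 0.742 and 1.16 in the 4 populations. Cd4 was called higher in both CD62Llo populations than in CD62Lhi PSGL1hi and naive cells, by log2 differences of 0.59 to 0.65. On its other probe set only the PSGL1lo differences from these were called. Cd3e was called higher in CD62Llo PSGL1hi than in naive cells (0.31, limma adjusted p = 0.0189). In bulk RNA of this kind, fewer cells of a type and less RNA per cell cannot be told apart.

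ATP released by stressed or activated cells is an extracellular signal. It opens P2X channels, among them P2X7 (P2rx7), which at high ATP lets through large ions and can kill T cells, and P2X4 (P2rx4), which responds to lower ATP. The ectoenzyme CD39 (Entpd1) removes phosphates from ATP and ADP to leave AMP, and CD73 (Nt5e) turns AMP into adenosine, which acts on the A2A receptor (Adora2a) and raises cAMP in T cells. Adenosine deaminase (Ada) ends the signal by turning adenosine into inosine, and its loss causes severe lymphocyte deficiency in humans. In mice, CD39 and CD73 are known from regulatory T cells, and CD73 also from memory and follicular helper T cells.

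The promoters of the 4 genes whose lead probe sets differed between PSGL1lo cells and CD62Llo PSGL1hi cells are shown because 2 of these genes were lower in PSGL1lo cells (Entpd1, Ada) and 2 were higher (Nt5e, P2rx7). Each run holds the 250 bases before the first start that RefSeq gives the gene in GRCm38.p6, read 5′ to 3′ on the gene's strand. Capitals mark every match, on either strand, to 6 motifs: the GC box GGGCGG, the E-box CAGCTG, the cAMP response element TGACGTCA, the AP-1 site TGANTCA, the BCL6 site TTCCTAGAA and the TATA box TATAAA.
Ada chr2:163750240-163750489 (minus strand): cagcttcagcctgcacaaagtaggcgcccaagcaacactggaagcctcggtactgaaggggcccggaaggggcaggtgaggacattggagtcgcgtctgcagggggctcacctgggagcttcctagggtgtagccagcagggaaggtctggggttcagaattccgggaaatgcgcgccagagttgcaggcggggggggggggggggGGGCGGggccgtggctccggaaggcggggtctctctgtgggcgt
Entpd1 chr19:40612116-40612365 (plus strand): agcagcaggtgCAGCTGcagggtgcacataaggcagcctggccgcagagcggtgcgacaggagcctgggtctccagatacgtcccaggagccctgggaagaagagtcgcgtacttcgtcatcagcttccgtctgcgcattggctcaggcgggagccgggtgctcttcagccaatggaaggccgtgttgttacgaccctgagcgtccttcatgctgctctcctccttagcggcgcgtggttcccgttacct
Nt5e chr9:88327359-88327608 (plus strand): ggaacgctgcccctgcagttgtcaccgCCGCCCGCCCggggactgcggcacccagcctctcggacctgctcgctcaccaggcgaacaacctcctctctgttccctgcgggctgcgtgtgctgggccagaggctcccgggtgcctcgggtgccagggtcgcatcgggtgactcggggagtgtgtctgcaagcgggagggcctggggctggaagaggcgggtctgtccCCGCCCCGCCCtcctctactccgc
P2rx7 chr5:122643677-122643926 (plus strand): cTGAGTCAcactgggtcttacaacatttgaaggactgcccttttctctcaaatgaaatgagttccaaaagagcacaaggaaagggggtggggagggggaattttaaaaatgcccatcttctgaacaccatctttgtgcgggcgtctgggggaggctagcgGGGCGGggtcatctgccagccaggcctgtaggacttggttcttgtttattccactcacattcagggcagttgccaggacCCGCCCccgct
The Ada window held 1 GC box, 44 bases before the start. The Entpd1 window held 1 E-box, 239 bases before the start, and no other motif. In the Nt5e window 4 GC boxes lay on the opposite strand in 2 overlapping pairs, and the P2rx7 window held 2 GC boxes and 1 AP-1 site. The GC box occurred in 32.7% and the E-box in 13% of 32851 mouse promoter windows of this length, the AP-1 site in 6.75%, the TATA box in 12.4%, the cAMP response element in 1.55% and the BCL6 site in 0.347%. The P2rx4 window had no match to these letters. These are RefSeq sequences of the reference strain. The MRL sequence was not read, and which start the cells used was not measured.

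Ada was the most strongly reduced of the 5 measured genes in PSGL1lo cells relative to CD62Llo PSGL1hi cells, by lead probe set. Its single probe set, 1417976_at, read 0.176, 0.159 and 0.228 in PSGL1lo cells, 1.226, 1.096 and 0.957 in CD62Llo PSGL1hi cells, 0.961, 0.985 and 1.015 in CD62Lhi PSGL1hi cells, and 2.765, 2.839 and 2.544 in naive cells. PSGL1lo arrays were the 3 lowest and naive arrays the 3 highest, with no overlap with either PSGL1hi population. Ada was 5.86-fold lower in PSGL1lo cells than in CD62Llo PSGL1hi cells, a log2 difference of -2.55 ± 0.13 (SE, n = 3 each, limma adjusted p = 2.14e-08). It was 5.32-fold lower than in CD62Lhi PSGL1hi cells (log2 difference -2.41, adjusted p = 3.02e-08). Against naive cells Ada was 14.6-fold lower in PSGL1lo cells, 2.5-fold lower in CD62Llo PSGL1hi cells and 2.75-fold lower in CD62Lhi PSGL1hi cells, with adjusted p-values of 1.17e-10, 4.73e-06 and 1.94e-06. The PSGL1hi populations did not differ by the test (CD62Llo minus CD62Lhi 0.14, 95% interval -0.14 to 0.42, adjusted p = 0.83). The order was therefore naive cells highest, the PSGL1hi populations between, and PSGL1lo cells lowest. In the comparison of PSGL1lo with CD62Llo PSGL1hi cells, 0.175% of all probe sets had a lower difference than Ada.

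**Figure D1:**
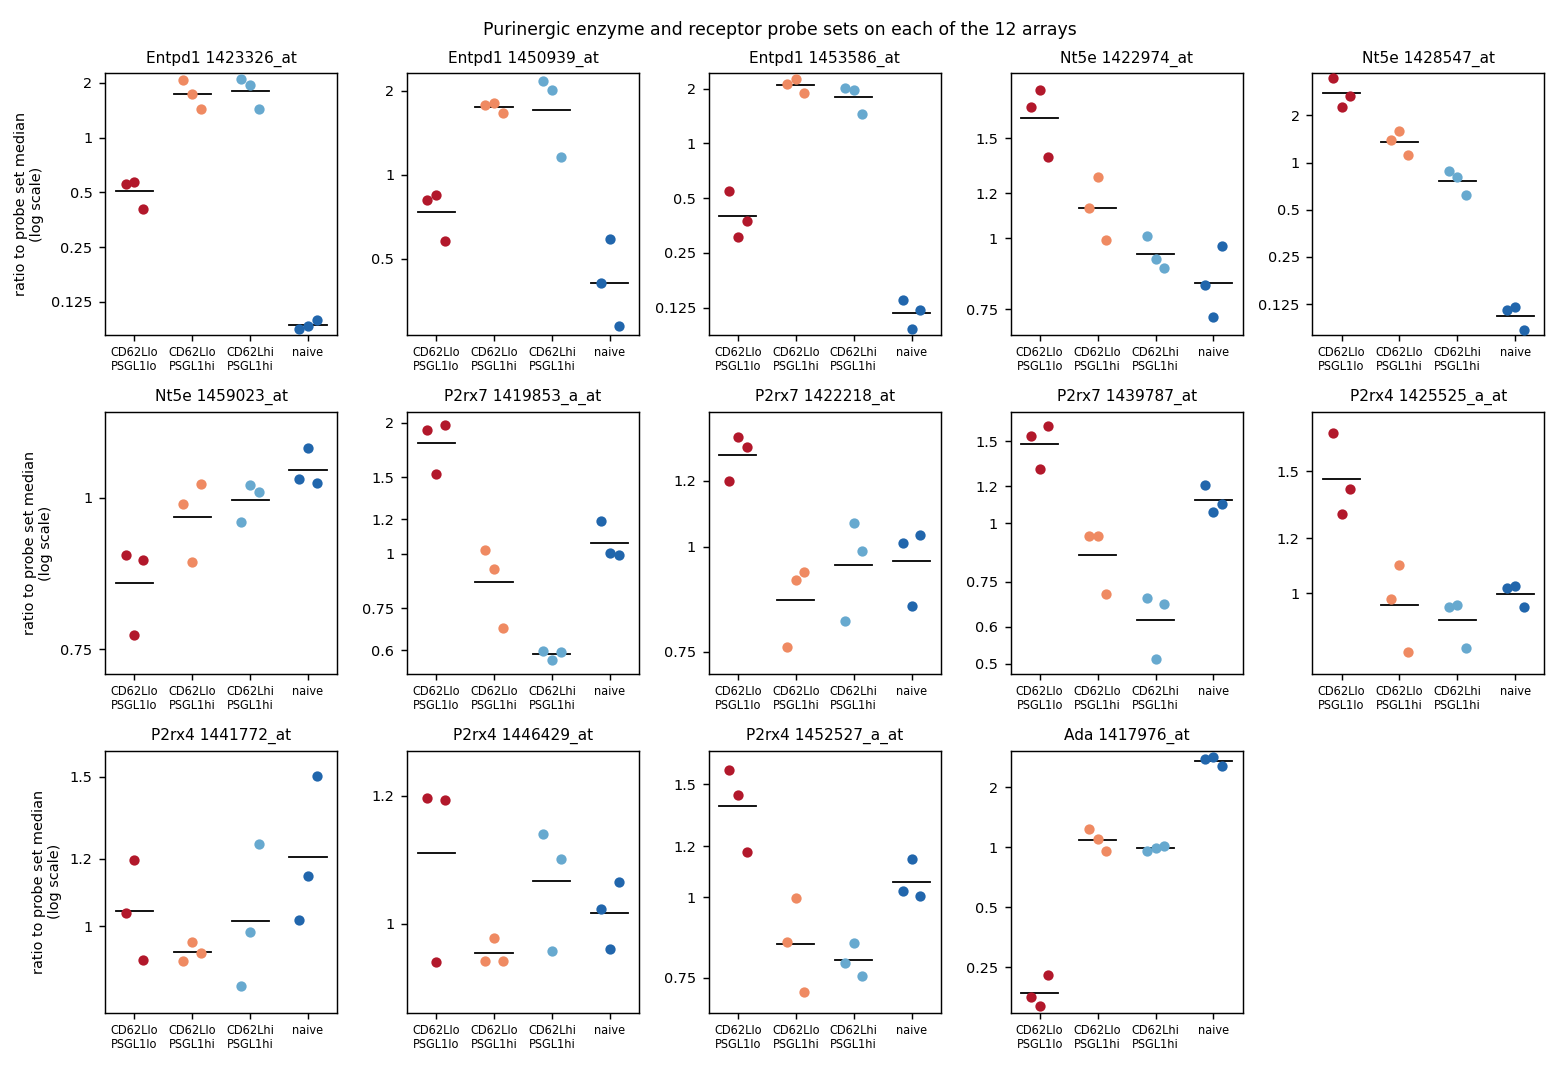
Ratio to the probe set's own median (log scale, each panel with its own range) on every array for the 14 probe sets; points are arrays, bars are geometric means of 3 arrays. Ada (1417976_at) separates into a naive level of 2.544 to 2.839, PSGL1hi levels of 0.957 to 1.226 and a PSGL1lo level of 0.159 to 0.228, while Entpd1 is lowest on the naive arrays.

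Entpd1 was higher in all 3 CD44+ populations than in naive cells, and among these it was lowest in PSGL1lo cells. The lead probe set, 1423326_at, read 0.555, 0.572 and 0.407 in PSGL1lo cells, 2.062, 1.747 and 1.436 in CD62Llo PSGL1hi cells, 2.111, 1.956 and 1.428 in CD62Lhi PSGL1hi cells, and 0.0886, 0.0924 and 0.1 in naive cells. The PSGL1lo arrays formed a level of their own, above every naive array and below every PSGL1hi array. Relative to naive cells, Entpd1 was 5.40-fold higher in PSGL1lo cells (log2 difference 2.43 ± 0.17, SE, limma adjusted p = 1.07e-07). The rise was 18.5-fold in CD62Llo PSGL1hi cells and 19.3-fold in CD62Lhi PSGL1hi cells, with adjusted p-values of 6.91e-10 and 8.51e-10. These sizes depended on the scaling: after quantile normalization the log2 difference from naive cells was 0.77 in PSGL1lo cells (main value 2.43, adjusted p = 0.0181), 2.84 in CD62Llo PSGL1hi cells (main value 4.21) and 2.75 in CD62Lhi PSGL1hi cells (main value 4.27), and all 3 were still called. PSGL1lo cells were 3.42-fold below CD62Llo PSGL1hi cells (log2 difference -1.77, adjusted p = 1.02e-05) and 3.57-fold below CD62Lhi PSGL1hi cells (-1.84, adjusted p = 4.71e-06). Between CD62Llo PSGL1hi and CD62Lhi PSGL1hi cells the log2 difference was -0.06, with a 95% interval of -0.43 to 0.31.

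The other probe sets of Entpd1, 1450939_at and 1453586_at, kept these directions in each of the 5 comparisons in which the lead probe set was called, and both were called in all 5. Against CD62Llo PSGL1hi cells they were lower in PSGL1lo cells by log2 differences of -1.25 ± 0.26 and -2.40 ± 0.20 (SE, adjusted p = 0.00594 and 2.47e-06). The 3 probe sets followed each other across the 12 arrays, with Pearson's r between 0.937 and 0.978; they report 1 gene and are not independent. Against naive cells the smallest of the 3 rises in PSGL1lo cells was that of 1450939_at, whose arrays overlapped with the naive ones (log2 difference 0.84, adjusted p = 0.0315). After quantile normalization of the arrays that rise was 0.32 (adjusted p = 0.537) and the rise of 1453586_at was 0.27 (adjusted p = 0.462), so neither was called. Leaving out naive replicate 3 gave 0.58 for 1450939_at (adjusted p = 0.159), and its call was also lost without naive replicate 1 (0.0817), PSGL1lo replicate 1 (0.0855) or PSGL1lo replicate 2 (0.09).

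Some markers of other cells differed between the same populations as Entpd1. Of 9 measured regulatory T cell markers, 4 were lower and 0 higher in PSGL1lo cells than in CD62Llo PSGL1hi cells. Among all lead probe sets 5.64% were called lower and 3.97% higher in this comparison. These shares stand beside every list count for it below. Foxp3, the master regulator of these cells, averaged 0.140 ± 0.0379 in PSGL1lo cells, 1.86 ± 0.343 in CD62Llo PSGL1hi cells, 2.14 ± 0.280 in CD62Lhi PSGL1hi cells and 0.367 ± 0.00800 in naive cells (SD, n = 3 each). The mean log2 ratio over the 9 markers ranged from -0.79 to -0.55 on the PSGL1lo arrays, 0.26 to 0.50 on the CD62Llo PSGL1hi arrays, 0.24 to 0.42 on the CD62Lhi PSGL1hi arrays and -1.45 to -1.31 on the naive arrays. On these list means PSGL1lo cells lay between naive and PSGL1hi cells, as they did for Entpd1. In PSGL1lo against naive cells, 5 of 9 markers were higher and 2 lower, beside 10.4% and 11.5% of all lead probe sets. Foxp3 itself was lower in PSGL1lo than in naive cells (log2 difference -1.42, limma adjusted p = 3.03e-05), while Entpd1 was higher. CD39 is also carried by B cells and myeloid cells. Of 7 B cell markers, 0 were higher and 2 lower in PSGL1lo cells than in CD62Llo PSGL1hi cells (Ms4a1 -1.51, Cd79b -1.03). The mean log2 ratio of the B cell list ranged from -0.38 to -0.13 on the PSGL1lo arrays, -0.13 to 0.10 on the CD62Llo PSGL1hi arrays, -0.17 to 0.20 on the CD62Lhi PSGL1hi arrays and -0.08 to -0.02 on the naive arrays. Of 12 macrophage, monocyte and neutrophil markers, 1 was lower and 0 higher, a count near those shares. The lower one was Cd68, which averaged 0.481 in PSGL1lo cells, 1.67 in CD62Llo PSGL1hi cells, 2.71 in CD62Lhi PSGL1hi cells and 0.206 in naive cells. That list ranged from -0.38 to 0.15, -0.11 to 0.30, -0.11 to 0.31 and 0.45 to 0.54 on the arrays of the 4 populations in the same order. In PSGL1lo against naive cells, 1 of the 7 B cell markers was called higher and 3 lower. Of the 12 macrophage, monocyte and neutrophil markers, 1 was called higher and 3 lower in that comparison. From the list of 7 genes for CD8 T and NK cells, 2 fell and 0 rose in PSGL1lo relative to CD62Llo PSGL1hi cells (Klrd1 -4.59, Eomes -4.43). That list ranged from -1.03 to -0.96 on the PSGL1lo arrays, 0.21 to 0.51 on the CD62Llo PSGL1hi arrays, 0.14 to 0.36 on the CD62Lhi PSGL1hi arrays and -0.26 to -0.20 on the naive arrays. Of 5 plasma cell markers 0 were called between PSGL1lo and CD62Llo PSGL1hi cells. The plasma cell list ranged from -0.19 to 0.20, 0.07 to 0.24, 0.23 to 0.52 and -1.14 to -1.05 on the arrays in the same order, lowest on the naive arrays. No marker can be placed at 0 on a ratio scale, and the part of these cells in the Entpd1 result was not tested.

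Nt5e was highest in PSGL1lo cells on the probe sets that differed most. The lead probe set, 1422974_at, read 1.703, 1.824 and 1.392 in PSGL1lo cells, 1.132, 1.284 and 0.992 in CD62Llo PSGL1hi cells, 1.008, 0.921 and 0.887 in CD62Lhi PSGL1hi cells, and 0.826, 0.727 and 0.968 in naive cells. All 3 PSGL1lo arrays lay above the other 9. On 1428547_at the ratios were 3.476, 2.276 and 2.664 in PSGL1lo cells, 1.389, 1.598 and 1.112 in CD62Llo PSGL1hi cells, 0.888, 0.812 and 0.619 in CD62Lhi PSGL1hi cells, and 0.115, 0.119 and 0.0856 in naive cells. Here the 4 populations did not overlap at all, and the order was PSGL1lo, CD62Llo PSGL1hi, CD62Lhi PSGL1hi, naive.

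The size of the Nt5e difference depended on the probe set. Against naive cells PSGL1lo cells were 1.95-fold higher on 1422974_at (log2 difference 0.97 ± 0.14, SE, limma adjusted p = 0.000109) and 26.2-fold higher on 1428547_at (4.71 ± 0.19, adjusted p = 5e-10). CD62Llo PSGL1hi cells were 1.35-fold higher on 1422974_at (adjusted p = 0.0402, and 0.098 to 0.18 without CD62Llo PSGL1hi replicate 1 or 2 or naive replicate 1 or 2) and 12.8-fold higher on 1428547_at (adjusted p = 5.91e-09). CD62Lhi PSGL1hi cells were 7.25-fold higher on 1428547_at (adjusted p = 1.02e-07), whereas 1422974_at gave a log2 difference of 0.17 with a 95% interval of -0.13 to 0.46. Quantile normalization lowered the log2 differences of 1428547_at from naive cells to 2.71 in PSGL1lo cells (main value 4.71), 2.19 in CD62Llo PSGL1hi cells (main value 3.68) and 1.13 in CD62Lhi PSGL1hi cells (main value 2.86), and all 3 were still called. The third probe set, 1459023_at, ran the other way in a narrow range: its ratios were 0.77 to 0.898 in PSGL1lo cells and 1.028 to 1.1 in naive cells (log2 difference -0.31, adjusted p = 0.0333). That call was lost after quantile normalization (adjusted p = 0.139), in the fit of these 2 groups alone (0.0699), and without PSGL1lo replicate 2 or any 1 naive array (0.0651 to 0.12). Across the 12 arrays 1422974_at correlated with 1428547_at at r = 0.802 and with 1459023_at at r = -0.929, so the probe sets of Nt5e disagree in direction.

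Within the CD44+ populations, Nt5e was 1.44-fold higher in PSGL1lo cells than in CD62Llo PSGL1hi cells on 1422974_at (log2 difference 0.53 ± 0.14, SE, limma adjusted p = 0.0256) and 2.04-fold higher on 1428547_at (1.03 ± 0.19, adjusted p = 0.00273). Quantile normalization ended both calls, with log2 differences of 0.36 (adjusted p = 0.092) and 0.52 (adjusted p = 0.147). The call on 1422974_at was also lost in the fit of these 2 populations alone (adjusted p = 0.0647), and without PSGL1lo replicate 1 or 2 or CD62Llo PSGL1hi replicate 1 or 3 (adjusted p from 0.073 to 0.126). Relative to CD62Lhi PSGL1hi cells, PSGL1lo cells were higher by 0.80 on 1422974_at and by 1.85 on 1428547_at (adjusted p = 0.00106 and 1.15e-05). CD62Llo PSGL1hi cells exceeded CD62Lhi PSGL1hi cells by 0.82 on 1428547_at, a difference that missed the threshold (adjusted p = 0.0567) and passed it with the replicate number as a block (adjusted p = 0.00507), after quantile normalization (0.0113) and after median centring (0.0423). It also passed without PSGL1lo replicate 1 (0.0325) or 2 (0.033) or CD62Llo PSGL1hi replicate 3 (0.0483).

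CD73 is known from follicular helper T cells, and that marker list moved with Nt5e. Of its 10 genes, 7 were higher and 0 lower in PSGL1lo cells than in CD62Llo PSGL1hi cells. Among all lead probe sets 3.97% were called higher and 5.64% lower in this comparison. Against naive cells 10 were higher in PSGL1lo cells, 10 in CD62Llo PSGL1hi cells and 9 in CD62Lhi PSGL1hi cells, and 0 lower. The shares of all lead probe sets called higher there were 10.4%, 9.91% and 9.78%. Bcl6, the repressor that directs these cells, averaged 4.42 ± 0.427 in PSGL1lo cells, 1.15 ± 0.248 in CD62Llo PSGL1hi cells, 0.918 ± 0.108 in CD62Lhi PSGL1hi cells and 0.659 ± 0.0338 in naive cells (SD, n = 3 each). The mean log2 ratio of the list ranged from 1.39 to 1.86 on the PSGL1lo arrays, 0.02 to 0.63 on the CD62Llo PSGL1hi arrays, -0.36 to -0.02 on the CD62Lhi PSGL1hi arrays and -2.78 to -2.52 on the naive arrays. CD73 is also found on endothelial cells: of 7 endothelial, erythroid and platelet markers, 2 were higher in PSGL1lo cells (Pecam1 1.20, Kdr 0.41) and 0 lower. The list's mean log2 ratio ranged from 0.03 to 0.11 on the PSGL1lo arrays, -0.21 to -0.12 on the CD62Llo PSGL1hi arrays, -0.11 to -0.02 on the CD62Lhi PSGL1hi arrays and 0.09 to 0.21 on the naive arrays. The part of these lists in the Nt5e result was not tested.

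**Figure D2:**
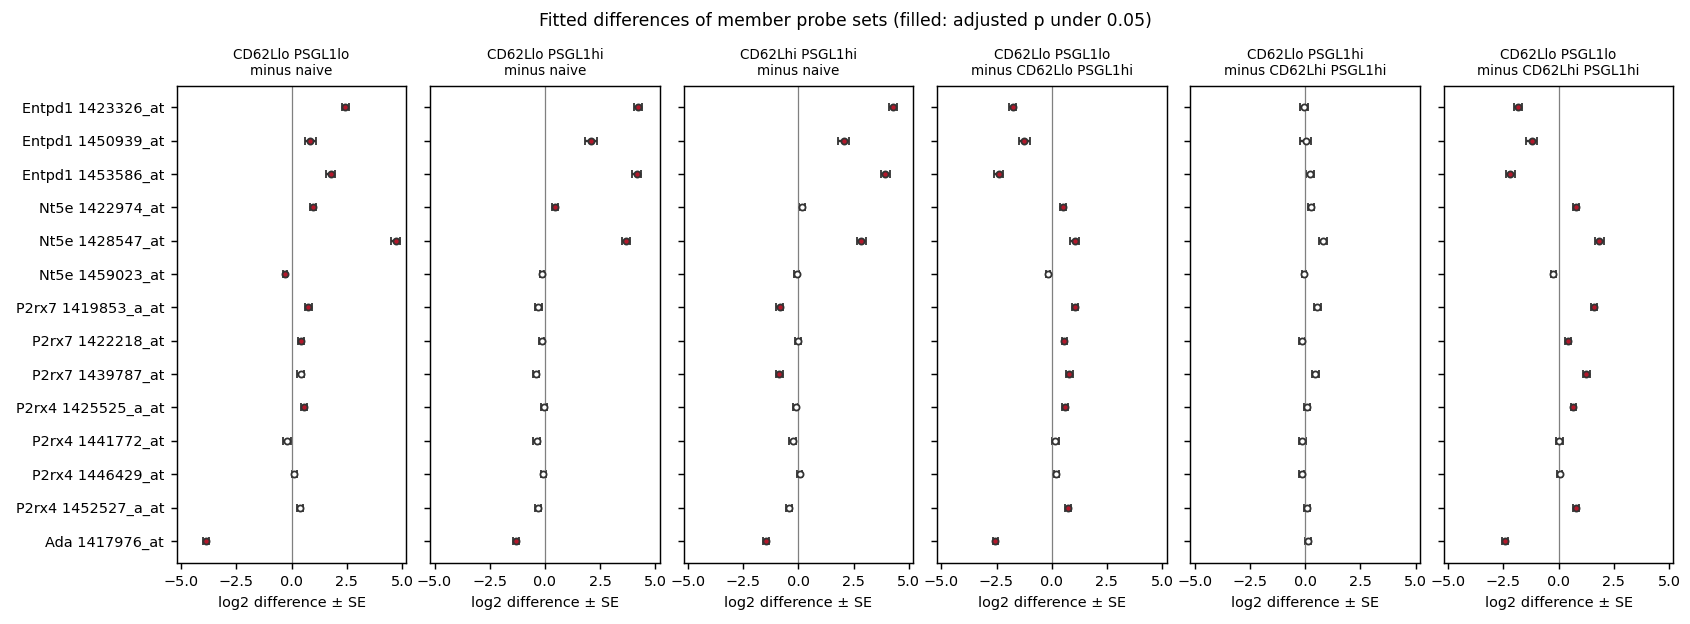
Fitted log2 difference with its standard error (x axis) for each of the 14 probe sets (rows) in the 6 comparisons (panels); filled points have an adjusted p under 0.05. Entpd1 and Ada lie to the left, and the 3 P2rx7 probe sets, 2 of P2rx4 (1425525_a_at, 1452527_a_at) and 2 of Nt5e (1422974_at, 1428547_at) to the right, where PSGL1lo cells are set against either PSGL1hi population.

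P2rx7 was higher in PSGL1lo cells than in both PSGL1hi populations on all 3 of its probe sets. The lead probe set, 1422218_at, read 1.199, 1.354 and 1.316 in PSGL1lo cells, 0.759, 0.913 and 0.934 in CD62Llo PSGL1hi cells, 0.816, 1.069 and 0.99 in CD62Lhi PSGL1hi cells, and 1.01, 0.85 and 1.034 in naive cells. The PSGL1lo arrays were the 3 highest, and the other populations overlapped. On 1419853_a_at the ratios were 1.924, 1.525 and 1.978 in PSGL1lo cells, 1.019, 0.924 and 0.676 in CD62Llo PSGL1hi cells, 0.597, 0.57 and 0.595 in CD62Lhi PSGL1hi cells, and 1.188, 1.006 and 0.994 in naive cells. On this probe set CD62Lhi PSGL1hi cells were the lowest population and overlapped with no other.

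Against CD62Llo PSGL1hi cells, P2rx7 was 1.49-fold higher in PSGL1lo cells on 1422218_at (log2 difference 0.57 ± 0.13, SE, limma adjusted p = 0.00906) and 2.09-fold higher on 1419853_a_at (1.06 ± 0.15, adjusted p = 0.00026). The third probe set, 1439787_at, gave 0.80 (adjusted p = 0.00229). Against CD62Lhi PSGL1hi cells the rises were 0.44, 1.61 and 1.26 on 1422218_at, 1419853_a_at and 1439787_at (adjusted p = 0.0362, 3.73e-06 and 3.08e-05). Without CD62Llo PSGL1hi replicate 1 the difference of 1422218_at from CD62Llo PSGL1hi cells had an adjusted p of 0.0556, and quantile normalization ended the calls on 1439787_at against CD62Llo PSGL1hi cells (adjusted p = 0.118) and on 1422218_at against CD62Lhi PSGL1hi cells (0.267). The call on 1422218_at against CD62Lhi PSGL1hi cells was also lost in the fit of these 2 populations alone (0.0957), and without PSGL1lo replicate 2 or 3 or CD62Lhi PSGL1hi replicate 1 or 3 (0.0586 to 0.167).

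Relative to naive cells the receptor ran in different directions in different populations. In PSGL1lo cells the rise was 1.34-fold on 1422218_at (adjusted p = 0.0275) and 1.70-fold on 1419853_a_at (adjusted p = 0.00161), and 1439787_at gave a log2 difference of 0.40 that missed the threshold (adjusted p = 0.0652), and passed it under median centring (0.0381), in the fit of these 2 groups alone (0.0377), and without PSGL1lo replicate 2 (0.0342), CD62Llo PSGL1hi replicate 3 (0.0427) or CD62Lhi PSGL1hi replicate 2 (0.0394). In CD62Lhi PSGL1hi cells P2rx7 was lower than in naive cells on 1419853_a_at and 1439787_at, by log2 differences of -0.85 and -0.86 (adjusted p = 0.000861 and 0.000666). After quantile normalization the difference of 1419853_a_at was -1.46. The lead probe set did not show that fall (log2 difference -0.01, 95% interval -0.28 to 0.26). Quantile normalization ended the calls for PSGL1lo against naive cells on 1422218_at (adjusted p = 0.239) and 1419853_a_at (adjusted p = 0.209), and that on 1422218_at was lost without PSGL1lo replicate 2 or 3 or naive replicate 2 (0.072 to 0.134). Between CD62Llo PSGL1hi and CD62Lhi PSGL1hi cells 1419853_a_at differed by 0.55 without overlap (adjusted p = 0.118), and was called without CD62Llo PSGL1hi replicate 3 (0.73, adjusted p = 0.0193) and with the replicate number as a block over all 12 arrays (0.0473); within the CD44+ arrays the blocked fit missed the threshold. The probe sets 1419853_a_at and 1439787_at correlated at r = 0.97 over the 12 arrays, and 1422218_at with them at 0.613 and 0.521.

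P2rx4 lies beside P2rx7 on chromosome 5, with 2 genes between them and 0 of these protein-coding in RefSeq. Its probe sets fell into a pair that was higher in PSGL1lo cells and a pair with no call. On 1425525_a_at the ratios were 1.705, 1.3 and 1.412 in PSGL1lo cells, 0.983, 1.1 and 0.824 in CD62Llo PSGL1hi cells, 0.955, 0.962 and 0.835 in CD62Lhi PSGL1hi cells, and 1.017, 1.026 and 0.956 in naive cells. The 3 PSGL1lo arrays stood above all others, which overlapped. On 1452527_a_at they were 1.578, 1.44 and 1.177 in PSGL1lo cells, 0.851, 0.996 and 0.712 in CD62Llo PSGL1hi cells, 0.792, 0.85 and 0.755 in CD62Lhi PSGL1hi cells, and 1.023, 1.149 and 1.004 in naive cells. Again the PSGL1lo arrays were highest, and here the naive arrays came next.

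On these probe sets P2rx4 was 1.52-fold and 1.64-fold higher in PSGL1lo cells than in CD62Llo PSGL1hi cells (limma adjusted p = 0.00661 and 0.00316). It was 1.60-fold and 1.74-fold higher than in CD62Lhi PSGL1hi cells (adjusted p = 0.00212 and 0.000971). Against naive cells the rise of 1425525_a_at in PSGL1lo cells was 1.46-fold (adjusted p = 0.00562), and 1452527_a_at gave a log2 difference of 0.39 that missed the threshold (adjusted p = 0.0551), and passed it under median centring (0.0344) and without PSGL1lo replicate 3 (0.0201) or CD62Llo PSGL1hi replicate 2 (0.0412) or 3 (0.0382). The lead probe set by the rule, 1441772_at, ranged from 0.913 to 1.198 in PSGL1lo cells, 0.91 to 0.957 in CD62Llo PSGL1hi cells, 0.85 to 1.25 in CD62Lhi PSGL1hi cells and 1.017 to 1.504 in naive cells, and was called in no comparison. Its difference between PSGL1lo and CD62Llo PSGL1hi cells was 0.16, with a 95% interval of -0.18 to 0.51. The remaining probe set, 1446429_at, was not called either. Its ratios lay between 0.947 and 1.196 on all 12 arrays. Over the 12 arrays 1425525_a_at and 1452527_a_at correlated at r = 0.906 with each other and at 0.879 and 0.876 with 1419853_a_at of P2rx7. The lead probe set 1441772_at correlated with 1425525_a_at at -0.085, so the account of P2rx4 depends on the probe set chosen.

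By lead probe set, 4 of the 5 measured genes differed among the 4 populations in limma's F test at an adjusted p under 0.05, against 26.3% of 18193 genes with a lead probe set and 23.7% of all probe sets. In PSGL1lo against CD62Llo PSGL1hi cells, 7 of the 14 purinergic probe sets were called higher and 4 lower, against 3.41% of all probe sets called higher and 4.97% called lower (8.38% in all). Of the 14, 11 did not overlap between these populations, against 21% of all probe sets. Their median log2 difference was 0.37, and the median of all probe sets was 0.002. In PSGL1lo against CD62Lhi PSGL1hi cells the counts were also 7 higher and 4 lower, against 5.37% and 6.27% of all probe sets (11.6% in all), with 12 of 14 not overlapping, against 21%. By lead probe set, Nt5e and P2rx7 were called higher and Entpd1 and Ada lower in both comparisons. Among all lead probe sets 3.97% were called higher and 5.64% lower against CD62Llo PSGL1hi cells, and 5.86% and 7.37% against CD62Lhi PSGL1hi cells (13.2% in all). The probe sets of a gene share its transcript, so these counts are not counts of independent results. The genes were also chosen with earlier results of these data known, so counts above these shares are no test of the group.

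For CD62Llo PSGL1hi against CD62Lhi PSGL1hi cells 0 of the 14 probe sets were called with limma, against 1.23% of all probe sets (0.395% higher, 0.839% lower) and 1.6% of lead probe sets (0.495% higher, 1.1% lower). Unadjusted, 3 probe sets had a p under 0.05 in limma: 1428547_at of Nt5e (0.000745), 1419853_a_at of P2rx7 (0.0023) and 1439787_at of P2rx7 (0.00632). These 3 were also the ones whose arrays did not overlap, against 14.3% of all probe sets. With the replicate number as a block, which treats same-numbered arrays as pairs, 2 of the 14 were called higher (1428547_at, adjusted p = 0.00507, and 1419853_a_at, 0.0473). Over all probe sets 1016 or 2.26% were then called, against 556 without the block. With the block within the CD44+ arrays alone 1 of the 14, 1428547_at, was called (0.00848), beside 2.42% of all probe sets.

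Against naive cells, in PSGL1lo cells 8 of the 14 probe sets were called higher and 2 lower, beside 9.53% and 10.6% of all probe sets (20.1% in all), and 11 did not overlap, beside 34.1%. In CD62Llo PSGL1hi cells 5 were called higher and 1 lower, beside 9.1% and 8.16% of all probe sets (17.3% in all), and 10 did not overlap, beside 39.1%. In CD62Lhi PSGL1hi cells 4 were called higher and 3 lower, beside 8.6% and 8.66% of all probe sets (17.3% in all), and 9 did not overlap, beside 33.2%. Ada was the 1 gene called lower by lead probe set in each of these comparisons. Called higher by lead probe set were Entpd1, Nt5e and P2rx7 in PSGL1lo cells (10.4% of all lead probe sets higher, 11.5% lower), Entpd1 and Nt5e in CD62Llo PSGL1hi cells (9.91% higher, 9.15% lower, 19.1% in all), and Entpd1 in CD62Lhi PSGL1hi cells (9.78% higher, 9.43% lower, 19.2% in all). These comparisons share their naive arrays.

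**Figure D3:**
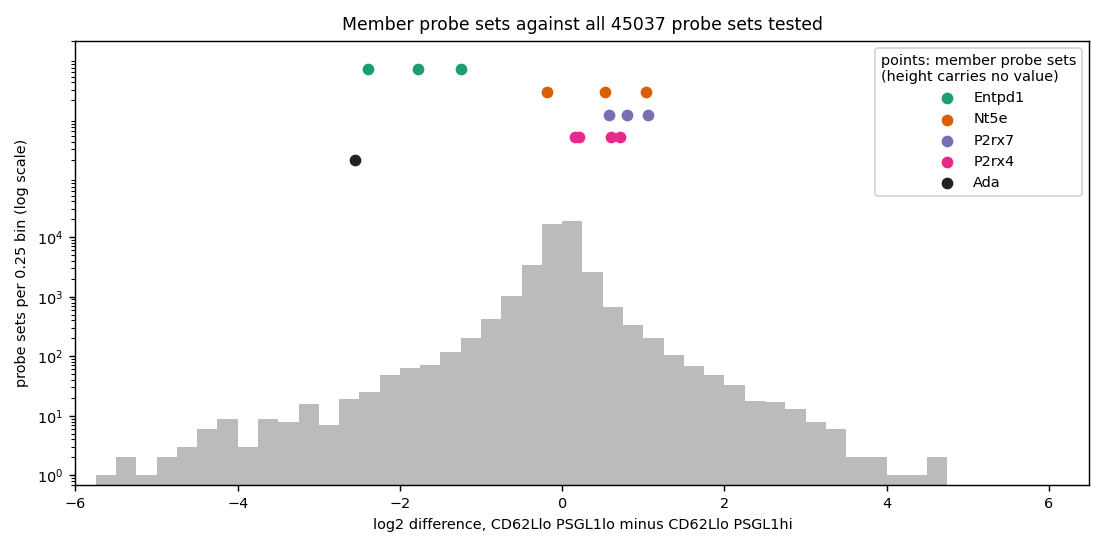
Distribution of the log2 difference between PSGL1lo and CD62Llo PSGL1hi cells over 45037 probe sets (grey bars, number of probe sets in bins of 0.25, log scale) with the 14 purinergic probe sets as points whose height carries no value. Ada at -2.55 and Entpd1 at -1.25 to -2.40 lie in the lower tail, and P2rx7 at 0.57 to 1.06 on the upper side.

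Other genes of the pathway were counted from lists, by lead probe set. In PSGL1lo against CD62Llo PSGL1hi cells, where 9.61% of all lead probe sets were called, 0 of 15 other ectonucleotidases and related surface enzymes were higher and 1 was lower. This was Dpp4 (CD26), the surface protease to which adenosine deaminase binds in humans. Dpp4 averaged 0.484 ± 0.100 in PSGL1lo cells, 1.15 ± 0.0888 in CD62Llo PSGL1hi cells, 1.37 ± 0.271 in CD62Lhi PSGL1hi cells and 0.808 ± 0.108 in naive cells (SD, n = 3 each). Its log2 difference from CD62Llo PSGL1hi cells was -1.26 ± 0.17 (SE, adjusted p = 0.000165), and its 3 other probe sets were also called lower. Of 13 other genes with P2X or P2Y receptor names, 0 were called in either direction in this comparison. The ligands of these receptors were not examined. P2ry10 came closest, at a log2 difference of -0.80 (adjusted p = 0.0558), and was called lower against CD62Lhi PSGL1hi cells (-0.87, adjusted p = 0.0276). The adenosine receptor list held 1 measured gene, and it was not called.

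Genes that carry nucleosides or release ATP ran both ways in the same comparison. Of 10 measured, 2 were higher and 2 lower. Gja1 encodes a connexin whose hemichannels release ATP. It averaged 5.37 ± 2.27 in PSGL1lo cells, 1.04 ± 0.0950 in CD62Llo PSGL1hi cells, 0.936 ± 0.172 in CD62Lhi PSGL1hi cells and 0.828 ± 0.0535 in naive cells (SD, n = 3 each). The PSGL1lo arrays spread from 2.776 to 7.016 and all lay above the other arrays (log2 difference from CD62Llo PSGL1hi cells 2.26 ± 0.26, SE, adjusted p = 5.2e-05), and 4 of its 5 other probe sets were called higher. Slc29a1, the equilibrative transporter that takes up adenosine, was higher by 0.68 (adjusted p = 0.00189). Panx1, which forms ATP-releasing pannexin channels, was lower by a log2 difference of -0.58 (adjusted p = 0.00832), and Lrrc8a, a subunit of volume-regulated anion channels, by -0.80 (adjusted p = 0.000761).

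In the list of cAMP signalling downstream of the A2A receptor, 2 of 19 genes were higher and 2 lower in PSGL1lo than in CD62Llo PSGL1hi cells. Adcy9, an adenylyl cyclase that makes cAMP, was higher by 1.37 ± 0.12 (SE, adjusted p = 3.1e-06), and Adcy3, another cyclase, was lower (log2 difference -1.08, adjusted p = 2.71e-06). Among the phosphodiesterases that degrade cAMP, Pde4b was higher (0.72) and Pde4d lower (-0.71). The other probe sets called the same way were 1 of 3 for Adcy9, 3 of 3 for Adcy3, 0 of 5 for Pde4b and 0 of 1 for Pde4d. Of 10 effectors downstream of P2X7, 0 were higher and 2 lower. These were Adam17 (-0.90, adjusted p = 0.015), a protease that sheds CD62L, and Ano6 (-0.44, adjusted p = 0.0144), a scramblase that exposes phosphatidylserine; 1 of 2 other Adam17 probe sets and 1 of 1 other Ano6 probe set were also called lower. Of 20 genes of purine salvage and degradation, 0 were higher and 1, the adenylate kinase gene Ak3, was lower (-0.52, adjusted p = 0.02), as was 1 of its 2 other probe sets. The medians of these lists lay between -0.11 and 0.03, against 0.007 for all lead probe sets.

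**Figure D4:**
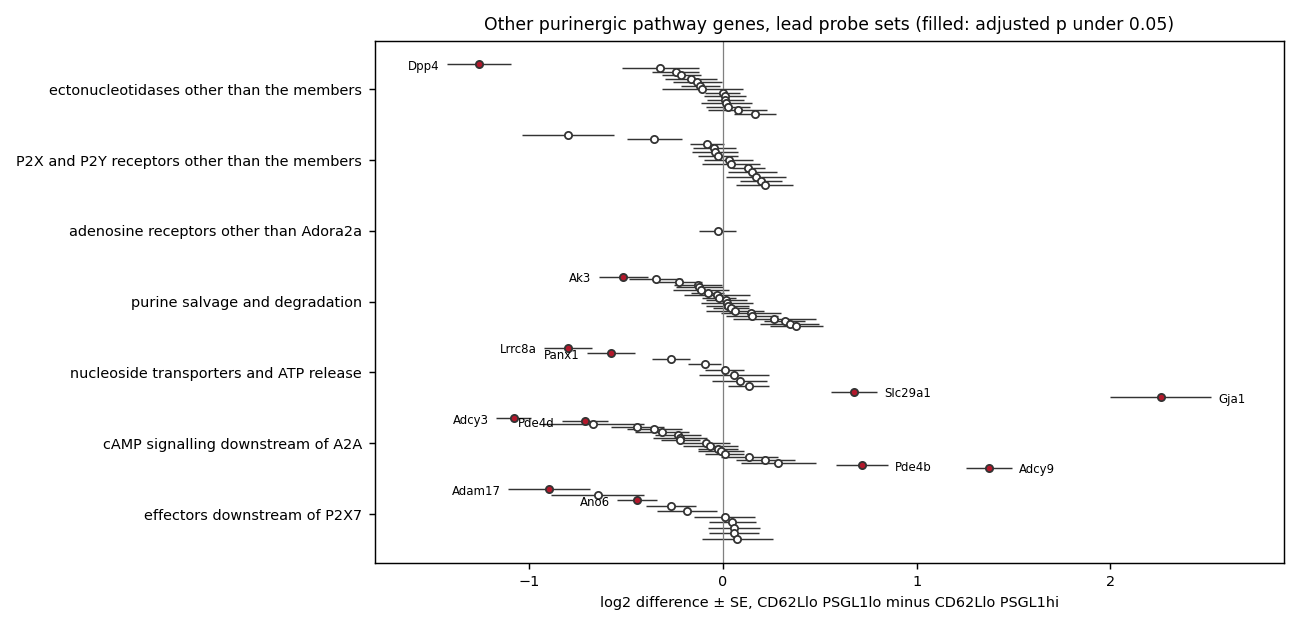
Log2 difference between PSGL1lo and CD62Llo PSGL1hi cells with its standard error (x axis) for the lead probe sets of 7 lists of other pathway genes (rows of points grouped by list); filled and labelled points have an adjusted p under 0.05. Gja1 at 2.26 and Adcy9 at 1.37 lie farthest to the right and Dpp4 at -1.26 farthest to the left.

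Against naive cells more of these genes were called, in both directions. Ampd1, the AMP deaminase that diverts AMP to IMP, averaged 0.951 ± 0.0800 in PSGL1lo cells, 0.973 ± 0.0899 in CD62Llo PSGL1hi cells and 1.10 ± 0.350 in CD62Lhi PSGL1hi cells, against 16.4 ± 1.48 in naive cells (SD, n = 3 each). It was lower in all 3 CD44+ populations by log2 differences of -4.11, -4.08 and -3.94 (adjusted p = 6.82e-10, 8.77e-10 and 1.62e-09). Adcy6, an adenylyl cyclase, was likewise lower, by -3.46, -3.68 and -3.06. Casp1, the inflammasome protease that P2X7 can activate in macrophages, was higher in PSGL1lo, CD62Llo PSGL1hi and CD62Lhi PSGL1hi cells by 3.44, 3.36 and 3.07. In PSGL1lo cells the calls came to 4 higher and 3 lower of 20 salvage and degradation genes, 4 higher and 5 lower of 19 cAMP genes, 4 higher and 1 lower of 10 P2X7 effectors, and 0 higher and 4 lower of 15 ectonucleotidases, beside 21.9% of all lead probe sets. Of the 13 other genes with P2X or P2Y receptor names only P2ry14, a receptor for UDP-glucose, was called in PSGL1lo cells (log2 difference -0.90, adjusted p = 0.000102). P2ry14 was also lower in CD62Lhi PSGL1hi than in naive cells (-0.91, limma adjusted p = 0.000136).

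The genes whose lead probe sets ran most like those of the purinergic genes over the 12 arrays were taken from 4535 named genes called in the F test, by Pearson's r of log2 ratios. For Ada they were H2-T24 (r = 0.991), Ecm1 (0.988) and Ifit1bl1 (0.986). For Entpd1 they were Gcnt1 (0.992), Niban1 (0.99) and Rora (0.987), and for Nt5e they were Efnb2 (0.966), Mapk8ip1 (0.958) and Nrbp2 (0.956). The lead probe sets of P2rx7 and P2rx4 had less close neighbours: Coa7 (0.888), Nfia (0.872) and Tubg2 (0.872) for P2rx7, and Rgr (0.788), Atxn7l1os2 (0.777) and Tusc1 (0.762) for P2rx4. The 12 arrays fall into 4 populations, so these values mostly compare population means. Among the purinergic genes themselves, the lead probe sets of Nt5e and Ada correlated at -0.899, and those of Entpd1 and Ada at -0.315.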

How the data were processed

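The authors deposited values for 12 arrays. MAS5 is named per the submitters' processing notes, without version or scaling. The deposited values are linear ratios: in 99.7% of 45101 probe sets the median over the arrays was within 0.002 of 1, and array medians lay between 0.967 and 1.022. After removing 64 control probe sets, lmFit and eBayes of limma 3.58.1 (R 4.3.3, with the data.table package, version 1.17.8) gave 1 mean per population for the log2 ratios of 45037, without pseudocount or filter. Two-sided p-values were Benjamini-Hochberg adjusted over all 45037, and calls had an adjusted p under 0.05. Residual degrees of freedom were 8, prior 5.54.

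A gene's lead probe set had no name suffix such as _s_at, _x_at or _a_at where possible, then a curated RefSeq target, then the lowest number. Since _a_at was counted among these suffixes, 1425525_a_at and 1452527_a_at of P2rx4 came after 1441772_at. List genes named in the text were up to 4 with the smallest adjusted p per list and comparison, and markers set beside a member. The correlations between probe sets that are printed were picked after their values were seen. The members and lists were chosen with earlier results of these data known.

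Same-numbered arrays of the CD44+ populations deviated together from their group means (r from 0.138 to 0.451 over probe sets, in all 9 pairs). With naive arrays r ran from -0.082 to 0.157, a range that holds the lowest value of the CD44+ pairs. The titles do not say what a replicate number shares, so whether the arrays are paired is not known. The main fit treated them as unpaired, and the block was an alternative. Alternatives were quantile normalization, median centring, 1 probe set per gene, the probe set with the highest SD, robust eBayes, a replicate block, the 2 groups alone and leaving out each array. Promoter windows come from RefSeq (GRCm38.p6), and 5 of the 5 measured genes matched. No genome build is given in the array files, so no probe positions are given.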

Additional observations from a re-analysis of the deposited data

How the results depend on the processing

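Ada kept its direction and its side of the threshold in every comparison under every alternative run. Of the values that turned their sign under an alternative, 20 in all, 0 were called in the first place. Under quantile normalization the difference between CD62Llo PSGL1hi and CD62Lhi PSGL1hi cells became 0.091 for Entpd1 and -0.116 for 1452527_a_at of P2rx4, and under median centring that of P2rx7 between CD62Lhi PSGL1hi and naive cells became 0.013. With the probe set of highest SD, P2rx4 gave 0.083 for CD62Llo PSGL1hi against CD62Lhi PSGL1hi and 0.393 for PSGL1lo against naive cells, P2rx7 gave 0.551 for CD62Llo PSGL1hi against CD62Lhi PSGL1hi cells, and 4 genes rather than 2 were called in CD62Lhi PSGL1hi against naive cells. That choice also called 5 genes rather than 4 in the F test and in PSGL1lo against each PSGL1hi population. Quantile normalization called 3 rather than 4 in the F test and in PSGL1lo against each other population. The fit of the 2 groups alone called 3 rather than 4 in PSGL1lo against each PSGL1hi population.

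With each array left out in turn, the genes called in PSGL1lo against CD62Llo PSGL1hi cells numbered 2 to 4, with 2 only without CD62Llo PSGL1hi replicate 1. Differences between CD62Llo PSGL1hi and CD62Lhi PSGL1hi cells then ranged from -0.233 to 0.071 for Entpd1, -0.252 to 0.198 for its probe set 1450939_at, -0.092 to 0.015 for Nt5e 1459023_at, -0.251 to 0.028 for P2rx4, -0.025 to 0.184 for 1425525_a_at and -0.036 to 0.206 for 1452527_a_at. Between PSGL1lo and CD62Lhi PSGL1hi cells P2rx4 ranged from -0.089 to 0.189 and its probe set 1446429_at from -0.014 to 0.17. Against naive cells, P2rx7 in CD62Lhi PSGL1hi cells ranged from -0.102 to 0.098 and 1425525_a_at in CD62Llo PSGL1hi cells from -0.151 to 0.058. The cause of these changes was not tested.

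The replicate block left the number of genes called by lead probe set as it was in all 6 comparisons (4, 3, 2, 4, 0 and 4), and changed no call within the CD44+ populations other than those given for Nt5e and P2rx7. In comparisons with naive cells, where same-numbered arrays correlated at only -0.082 to 0.157, the block brought 1452527_a_at of P2rx4 and 1439787_at of P2rx7 past the threshold (adjusted p from 0.0124 to 0.0477). Over all probe sets, calls between CD62Llo PSGL1hi and CD62Lhi PSGL1hi cells numbered 556, against 893 after quantile normalization, 1016 with the block, 1089 with the block within the CD44+ arrays, 368 in the fit of these groups alone, 383 with 1 probe set per gene, and 364 to 714 with an array left out. With 1 probe set per gene fewer features were tested, and calls for the other comparisons numbered 1951 to 4221, against 3775 to 9044. In PSGL1lo against CD62Lhi PSGL1hi cells the fit of the 2 groups alone called 3274, against 5242. Without brightness, probe sets near background cannot be told from bright ones.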
